A study of Mus musculus with 8 samples.

Results

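The Hand and Twist group comprises 6 genes for basic helix-loop-helix (bHLH) transcription factors, namely Hand1, Hand2, Twist1, Twist2 and the E-protein genes Tcf12 and Tcf4. They were chosen by name from the 22380 annotated protein-coding genes, and every SMAD4 peak whose centre lay within 100 kb of the 5′ end of one of them was assigned to it (mouse build mm9, GENCODE vM1 annotation). This gave 3 of the 2073 peaks in the E9.5 list and 9 of the 6185 peaks in the E10.5 list. Tcf4 denotes the E-protein gene on chromosome 18, and not the WNT effector gene Tcf7l2, for which the same name is in use. The peaks come from chromatin immunoprecipitation followed by sequencing (ChIP-seq) with the M2 anti-FLAG antibody in NMRI embryos that carry a 3xFLAG tag on both copies of their endogenous Smad4 gene. The 8 samples comprise 2 SMAD4 ChIP samples and 2 input samples at each stage, and the inputs come from the same tagged embryos, so no untagged control enters. The E9.5 samples consisted of forelimb buds with trunk attached, pooled from about 80 embryos per replicate that the protocol dates to E9.75. The E10.5 samples consisted, by their tissue label and the protocol, of fore- and hindlimb buds from about 100 embryos per replicate, although the source label gives forelimb bud at both stages. Since the attached trunk is given for E9.5 alone, tissue and stage cannot be told apart. Both replicates of a stage had been merged into 1 list before any value used here, which leaves no replicate error and no depth per library, and no test was made. The lists describe whole tissue, and where they hold no peak, SMAD4 binding below the calling threshold cannot be told from its absence.

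HAND and TWIST proteins bind DNA as dimers, usually with a broadly expressed E protein such as TCF12, TCF4 or TCF3, and their target sequence is the E-box (CANNTG). ID proteins lack the DNA-binding part of the bHLH domain and capture E proteins, and Id genes are well-known direct targets of BMP signalling through SMAD4. In the limb bud, HAND2 marks the posterior mesenchyme and is required to activate Shh, TWIST1 is required in the mesenchyme for outgrowth, and the balance of HAND2 and TWIST1 dimers affects digit patterning. HAND1 is best known from the heart and extra-embryonic tissues, and TWIST2 from the dermis and skeletal precursors.

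The sequence under 5 of the peaks is shown first, since these are the peaks outside Tcf4 with the better score ranks (Hand1, Hand2, Tcf12), the second peak next to Hand2, and the only E9.5 peak of Twist2. Each is the 300 bp around the peak centre, on the plus strand of mm9, and none overlaps an annotated UTR. Capitals mark the SMAD box CAGAC on either strand (CAGAC or GTCTG) and the E-box CANNTG. The windows lie at chr11:57579339-57579638 (Hand1, E10.5), chr8:59825943-59826242 and chr8:59832579-59832878 (Hand2, E10.5), chr1:93682904-93683203 (Twist2, E9.5) and chr9:71980889-71981188 (Tcf12, E10.5).
Hand1 +66.8 kb: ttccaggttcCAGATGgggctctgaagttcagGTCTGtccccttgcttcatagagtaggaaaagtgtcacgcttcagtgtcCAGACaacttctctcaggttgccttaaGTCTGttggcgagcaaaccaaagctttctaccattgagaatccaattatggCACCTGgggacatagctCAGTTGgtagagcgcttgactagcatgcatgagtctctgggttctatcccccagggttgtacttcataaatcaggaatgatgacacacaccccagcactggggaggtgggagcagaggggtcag
Hand2 +26.3 kb: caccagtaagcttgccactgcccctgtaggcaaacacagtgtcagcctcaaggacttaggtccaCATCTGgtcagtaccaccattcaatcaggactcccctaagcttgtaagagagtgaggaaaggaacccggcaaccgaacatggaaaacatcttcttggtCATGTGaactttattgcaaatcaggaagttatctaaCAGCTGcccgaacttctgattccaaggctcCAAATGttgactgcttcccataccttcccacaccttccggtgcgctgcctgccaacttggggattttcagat
Hand2 +32.9 kb: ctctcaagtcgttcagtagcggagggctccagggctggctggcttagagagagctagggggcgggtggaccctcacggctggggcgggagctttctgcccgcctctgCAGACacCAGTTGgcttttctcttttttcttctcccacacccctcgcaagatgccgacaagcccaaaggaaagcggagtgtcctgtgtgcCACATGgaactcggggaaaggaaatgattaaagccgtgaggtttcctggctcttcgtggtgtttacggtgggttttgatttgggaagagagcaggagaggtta
Twist2 -15 kb: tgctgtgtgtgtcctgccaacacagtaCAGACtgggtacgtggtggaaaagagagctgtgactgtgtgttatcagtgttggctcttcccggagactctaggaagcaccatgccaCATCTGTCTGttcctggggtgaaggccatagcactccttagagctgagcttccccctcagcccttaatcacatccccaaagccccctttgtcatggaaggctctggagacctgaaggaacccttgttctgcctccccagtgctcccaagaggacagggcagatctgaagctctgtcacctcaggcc
Tcf12 -21.4 kb: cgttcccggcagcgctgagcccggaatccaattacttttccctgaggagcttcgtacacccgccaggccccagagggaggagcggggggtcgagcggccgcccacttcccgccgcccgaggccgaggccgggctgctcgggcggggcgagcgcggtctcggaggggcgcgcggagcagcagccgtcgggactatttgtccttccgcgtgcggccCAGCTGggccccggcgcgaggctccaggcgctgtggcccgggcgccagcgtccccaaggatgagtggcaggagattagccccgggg
Positive distances lie downstream of the 5′ end of the gene and negative distances upstream. The Hand1 window holds 3 SMAD boxes and 3 E-boxes, whereas the nearer Hand2 window holds 4 E-boxes and no SMAD box. In the farther Hand2 window, the only SMAD box (bases 108 to 112, counted from 1 at the first base shown) is separated by 2 bases from an E-box (bases 115 to 120). In the Twist2 window, the second SMAD box (bases 120 to 124) begins on the last base of the E-box (bases 115 to 120). How many windows of either list hold a SMAD box this close to an E-box was not counted, and nothing is read from these spacings. The Tcf12 window holds 1 E-box and no SMAD box.

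To determine which of the genes had SMAD4 peaks nearby at each stage, peaks were counted per gene. At E9.5, 2 of the 6 genes (Twist2 and Tcf4) had a peak within 100 kb, against 20.5% of all protein-coding genes. At E10.5, 5 of the 6 had one, and Twist1 was the exception, against 52.9% of all protein-coding genes. Peaks of both stages were found at Twist2 and Tcf4, which is 2 of 6 genes beside 14.6% of all genes, and only Twist1 had a peak at neither stage, as had 41.3% of all genes. The group holds only 6 genes, and nothing particular to it is read from these shares. Overlap by at least 1 bp with the other list was found for 1 of the 3 peaks at E9.5 (background 18.7% of the E9.5 list) and 1 of the 9 at E10.5 (background 6.26% of that list). Both belong to the single overlapping pair of the group, which lies at Tcf4. An overlapping pair within 100 kb was found for 5.51% of all protein-coding genes.

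**Figure D1:**
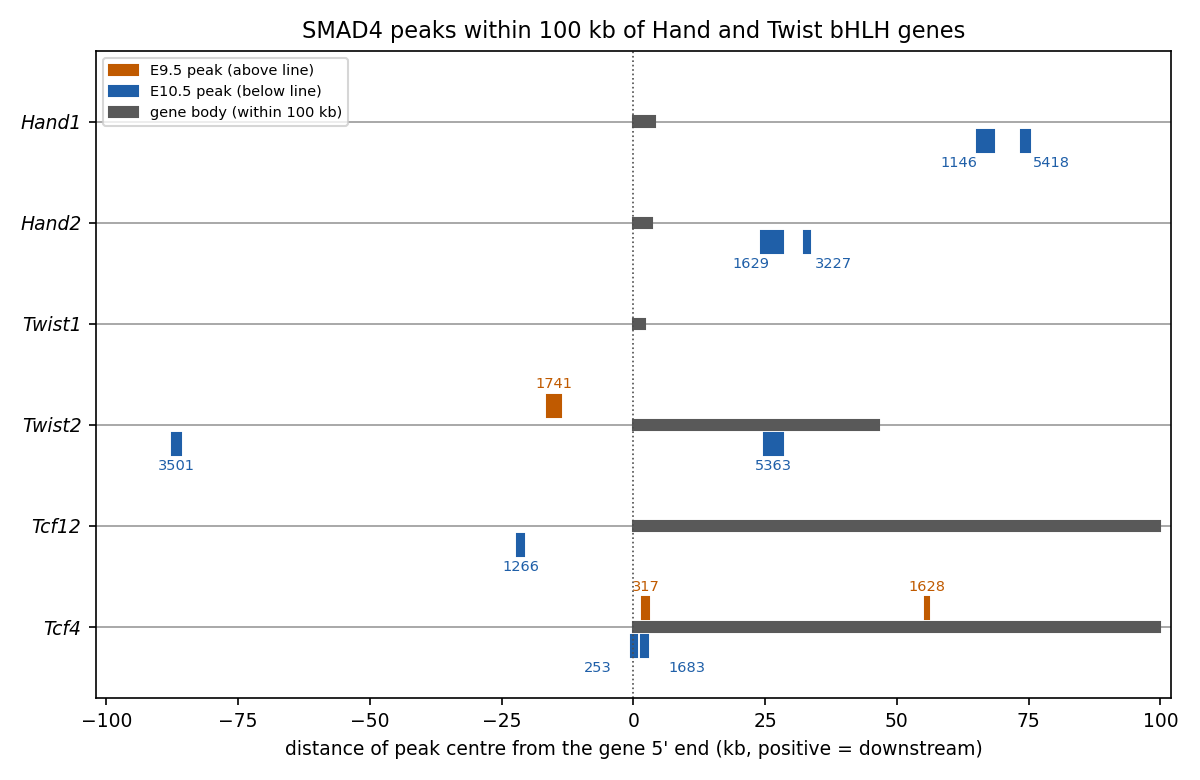
SMAD4 peaks within 100 kb of the 6 genes, drawn to scale by distance from the 5′ end (x-axis, kb) with E9.5 peaks above and E10.5 peaks below each line, and the numbers give the score rank in the list of that stage. Peaks of both stages lie at Twist2 and Tcf4, those of Hand1, Hand2 and Tcf12 are from E10.5, and Twist1 has none.

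Hand2 (chr8:59799780-59803314, ENSMUSG00000038193) was without an E9.5 peak in the 100 kb to either side and had 2 at E10.5, both intergenic and downstream. The first, chr8:59824097-59828089, is 3993 bp wide and centred 26.3 kb from the 5′ end. Its score, the value the authors attached to each peak and whose unit the lists do not name, was 72.2, which is rank 1629 of 6185 (best 26.3% of the list). The second, chr8:59832180-59833278, is 1099 bp wide, lies 32.9 kb from the 5′ end and had a score of 59 (rank 3227). The first is thus among the wider peaks of its list (72.9% are as narrow or narrower) and the second among the narrowest (6.74%). Hand2 is the protein-coding gene with the nearest 5′ end for both peaks, and no other protein-coding gene starts within 100 kb of it (the median gene has 3 such neighbours). The nearest annotated transcript start of any kind is that of the long non-coding RNA gene 5033428I22Rik, 15.2 and 21.8 kb away. The nearest E9.5 peak to Hand2 was 421 kb from the 5′ end, with the 5′ end of Galnt7 closest to it, and 44.5% of protein-coding genes had their nearest E9.5 peak as far away or farther.

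Hand1 (chr11:57642207-57646320 on the minus strand, ENSMUSG00000037335) likewise had 2 E10.5 peaks within 100 kb and none from E9.5. The better-ranked, chr11:57577925-57581053, is 3129 bp wide, is centred 66.8 kb downstream and scored 80.3 (rank 1146, best 18.5%). The other, chr11:57570985-57572791, is 1807 bp wide, lies 74.4 kb downstream and scored 49 (rank 5418). Both centres lie in an intron of Galnt10, which encodes an enzyme of O-glycosylation, and the protein-coding 5′ end nearest to them is that of Sap30l, from which they lie at -35.7 and -43.3 kb. Unlike the peaks of Hand2, those of Hand1 therefore lie inside another gene and closer to the 5′ end of another protein-coding gene. The better-ranked peak is also 1.56 kb from an annotated 5S ribosomal RNA copy (n-R5s69). The nearest E9.5 peak was 177 kb from the 5′ end of Hand1, on its upstream side, in a coding exon of Larp1 (chr11:57821826-57823943, rank 647 of 2073).

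Twist1 (chr12:34642536-34644682, ENSMUSG00000035799) had no peak within 500 kb in either list. Its nearest E9.5 peak was 804 kb upstream in an intron of Atxn7l1, and its nearest E10.5 peak was 909 kb upstream in an intron of Cdhr3. At E9.5, 26.2% of protein-coding genes had their nearest peak as far away or farther, and at E10.5 this was 9.67%. The median distances over all genes were 350 and 87.8 kb. Ferd3l, a bHLH gene that is a neighbour of Twist1, was in the same position, with its nearest peaks at 775 and 880 kb.

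Twist2 (chr1:93698038-93744605, ENSMUSG00000007805) was the only gene besides Tcf4 with an E9.5 peak within 100 kb. This peak, chr1:93681706-93684401, is intergenic, 2696 bp wide and centred 15 kb upstream. It is wide for its list (91.4% of the E9.5 peaks are as narrow or narrower), but its score of 45.7 gave it rank 1741 of 2073. At E10.5, chr1:93610561-93612192 lay 86.7 kb upstream (score 57.8, rank 3501) and chr1:93722935-93726409 in the Twist2 intron, 26.6 kb downstream (score 50, rank 5363). The stages had no peak in common, since the E9.5 peak was 41.6 kb from the nearest E10.5 peak. All 3 peaks rank in the lower-scored part of their lists, and Twist2 is the nearest protein-coding 5′ end for each of them, with no other such 5′ end within 100 kb of its own.

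**Figure D2:**
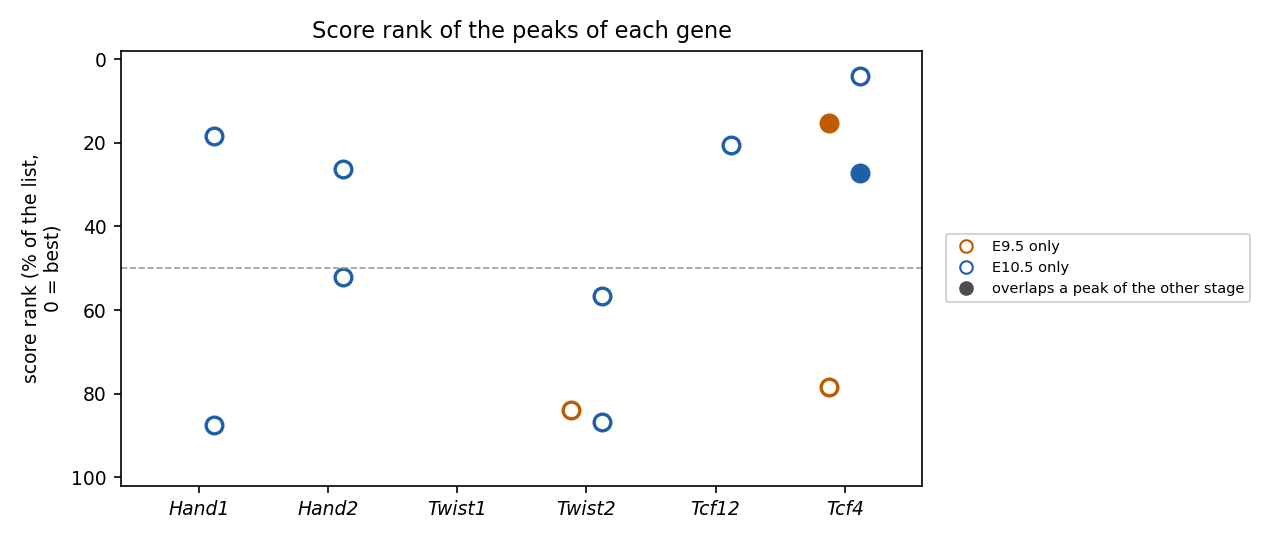
Score rank of every peak within 100 kb of each gene, as a percentage of the list of its stage (y-axis, 0 is the best-scored peak), with filled points for peaks that overlap the other stage and a dashed line at 50%. The Tcf4 peaks range from 4.09% to 78.5%, and the 3 Twist2 peaks lie between 56.6% and 86.7%.

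Over the group, the 9 E10.5 peaks had a median rank of 27.2% of the list and a median score of 71.6 (59.8 for the whole list), and 5 of the 9 stood in its better-scored 50%. The 3 E9.5 peaks had a median rank of 78.5% and a median score of 50.3 (56.3 for the whole list), and 1 of the 3 stood in the better-scored 50%. Scores were ranked within a stage and not compared between stages. The median width of the E10.5 peaks was 1630 bp (2550 bp for the whole list), with 3 of the 9 above the list median (at Hand1, Hand2 and Twist2), and that of the E9.5 peaks was 1240 bp, as for the whole list. The farthest peak inside it was that of Twist2 at -86.7 kb, and the nearest outside it was an E10.5 peak 106 kb upstream of Tcf12 (chr9:72064951-72066084, score 64.2).

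The E-protein genes differed from each other in where their peaks lay. Tcf12 (chr9:71692059-71959626 on the minus strand, ENSMUSG00000032228) is 268 kb long and had no peak centred in its body at either stage. The share of genes of similar length without such a peak was not computed, so nothing particular to Tcf12 is read from this. Its only peak within 100 kb was chr9:71980330-71981747 at E10.5, an intergenic region of 1418 bp centred 21.4 kb upstream (score 78.1, rank 1266, best 20.5%). The centre of this peak is rich in GC, with 74% of 300 bp (91.7% of the E10.5 windows have as little or less), and its CpG dinucleotides reached 0.904 of the number that the base composition predicts (list median 0.331). It is nevertheless 11.3 kb from the nearest annotated transcript start of any gene, a U6 snRNA gene. At E9.5 no peak lay within 1 Mb of Tcf12, which 21.7% of protein-coding genes share, whereas 9 E10.5 peaks did (median over all genes 7).

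**Figure D3:**
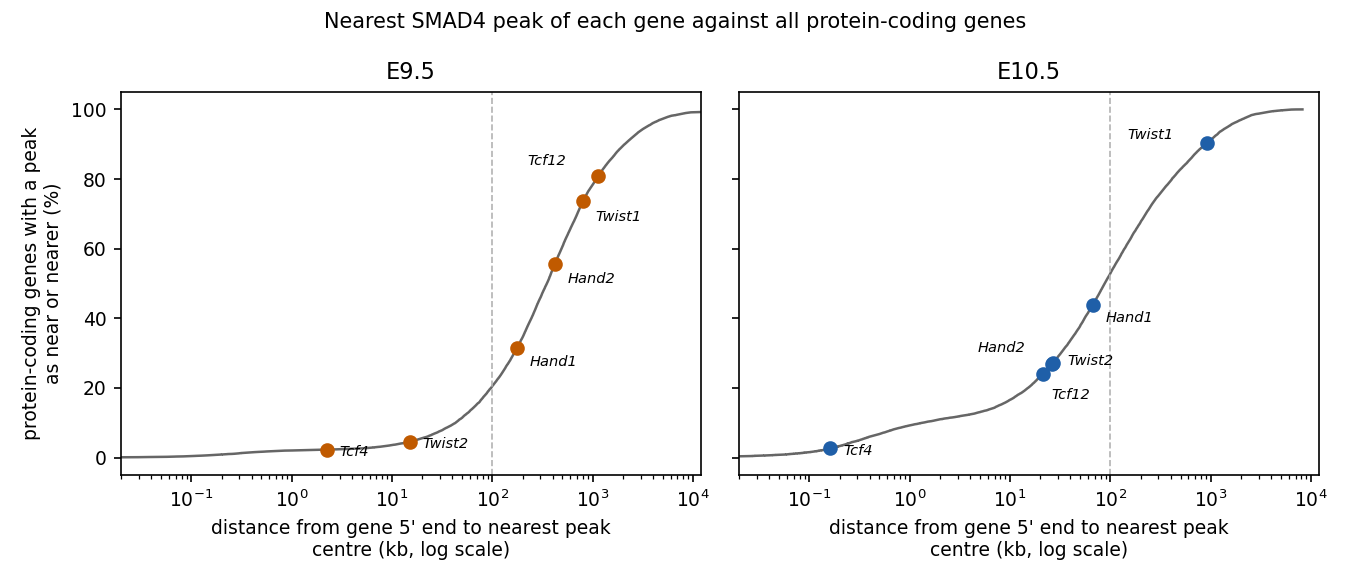
Share of protein-coding genes (y-axis, %) with a peak centre as near to the 5′ end or nearer than the distance on the log x-axis (kb), with the 6 genes marked at E9.5 (left) and E10.5 (right) and a dashed line at 100 kb. Tcf4 lies at 2.26 and 0.162 kb, Twist1 at 804 and 909 kb, and Tcf12 at 1140 and 21.4 kb (E9.5 first). The E10.5 list is the longer (6185 against 2073 peaks), and the median distances over all protein-coding genes are 350 and 87.8 kb.

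Tcf4 (chr18:69503800-69847621, ENSMUSG00000053477) was the only one of the 6 genes with peaks within 5 kb of its 5′ end. At E9.5, chr18:69505442-69506681 was centred 2.26 kb downstream (score 81.9, rank 317 of 2073). At E10.5, chr18:69505268-69506644 was centred 2.16 kb downstream (score 71.6, rank 1683 of 6185). These form the overlapping pair of the group, with 1203 bp in common, or 97% of the former and 87.4% of the latter, and with centres 106 bp apart. A further E10.5 peak, chr18:69503414-69504510, lay on the 5′ end itself (0.162 kb, in a UTR) and was the best-scored of the 9 E10.5 peaks in the group (score 120, rank 253, best 4.09%). It had no counterpart at E9.5 by overlap, although its centre was 2.1 kb from that of the E9.5 peak. The second E9.5 peak, chr18:69559154-69559847, is intronic, 55.7 kb downstream and weaker (score 50.3, rank 1628). For 97.7% of protein-coding genes the nearest E9.5 peak was as far from the 5′ end as that of Tcf4 or farther, and for 97.4% this held at E10.5.

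Beyond 100 kb, further peaks lay along the 344 kb of Tcf4, for which 15 transcripts with 14 distinct 5′ ends are annotated. In total, 4 E9.5 and 3 E10.5 peaks were centred in the gene. These counts stand without a share over genes of similar length, which was not computed. At E9.5, chr18:69752732-69753499 lay 249 kb into the gene and 0.035 kb from an internal transcript start, and with a score of 106 and rank 184 it was ranked above the peak near the 5′ end. The other, chr18:69807161-69808086, lay 304 kb into the gene and 31.7 kb from the nearest transcript start (rank 1171). At E10.5, chr18:69680763-69682277 lay 178 kb into the gene and 0.0725 kb from another internal start, with a low rank (score 47.8, rank 5457). The E10.5 list thus holds a peak at the start 178 kb into the gene and the E9.5 list at that of 249 kb, whereas the overlapping pair near the 5′ end stands at a start that both lists hold (0.204 and 0.0985 kb from the centres). Altogether 5 of the 7 peaks were centred within 0.5 kb of an annotated Tcf4 transcript start, 2 of 4 at E9.5 and 3 of 3 at E10.5. The region of the overlapping pair enters this count once for each stage. Of all peaks centred in a protein-coding gene, 32.1% at E9.5 and 36.7% at E10.5 were as close to a start of that gene. The limit of 0.5 kb was set after the distances had been seen, and the many annotated starts of Tcf4 move with this count, so that their part in it was not tested.

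**Figure D4:**
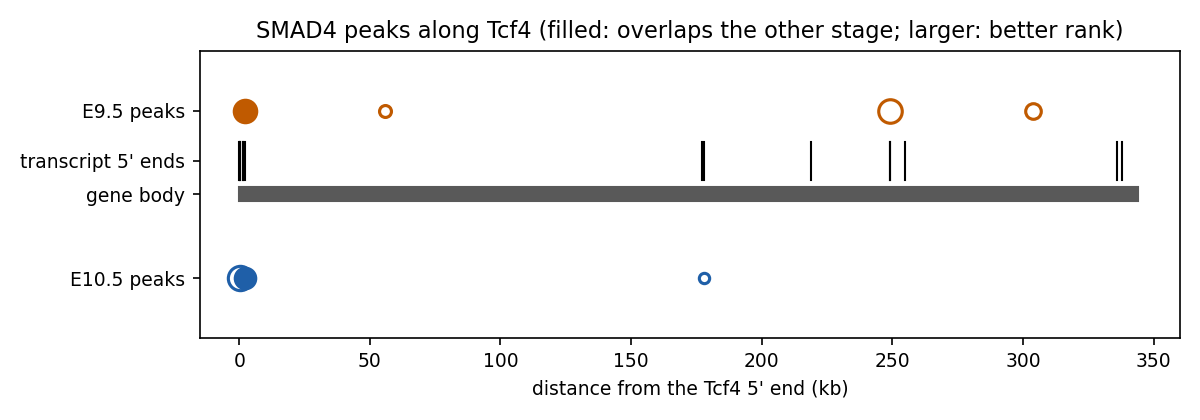
Peaks along Tcf4 by distance from its 5′ end (x-axis, kb), with E9.5 peaks in the top row, the annotated transcript 5′ ends and the gene body in the middle and E10.5 peaks in the bottom row. Filled points overlap a peak of the other stage and larger points have a better rank. Centres of 5 of the 7 peaks lie within 0.5 kb of a transcript 5′ end, with the overlapping pair counted once for each stage. Of all peaks centred in a protein-coding gene, 32.1% (E9.5) and 36.7% (E10.5) were as close to a start of that gene.

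In a wider window of 1 Mb to either side, the genes differed in the number of peaks around them. Twist2 had 5 E9.5 and 14 E10.5 peaks, against medians of 2 and 7 over all protein-coding genes. Hand1 had 5 and 6, Tcf4 had 4 and 5, Hand2 had 1 and 3, and Twist1 had 1 and 3. For Hand2 and Twist1, 43.5% (E9.5) and 31.4% (E10.5) of genes had as few or fewer. The best-ranked peak in the window around Twist2 was chr1:94075534-94078086 at E10.5 (score 150, rank 111), 379 kb downstream and nearest to the 5′ end of Hdac4. Around Hand1, an overlapping pair lay 359 and 360 kb downstream (chr11:57285279-57288396 at E9.5, rank 243, and chr11:57285603-57286879 at E10.5, rank 2940), with Fam114a2 as its nearest protein-coding gene. Around Hand2, the E10.5 peak chr8:59965243-59967761 (score 92.3, rank 717) was ranked above both nearer peaks but lies 167 kb downstream in the UTR of Sap30. Around Tcf12, the best-ranked was an E10.5 peak at -551 kb (chr9:72509292-72511428, rank 200) near Nedd4. For each of these peaks the nearest 5′ end is that of another gene, and the lists do not assign a peak to a gene.

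**Figure D5:**
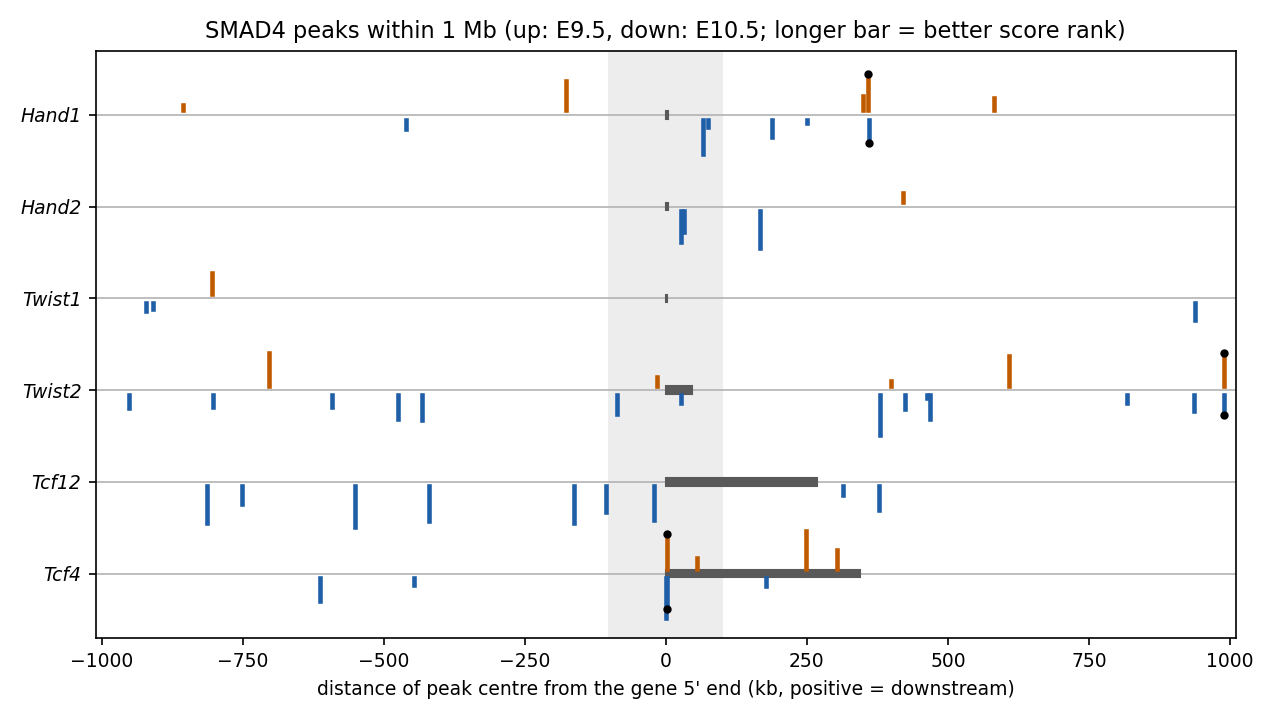
Peaks within 1 Mb of each gene by distance from its 5′ end (x-axis, kb), with bars upward for E9.5 and downward for E10.5, longer bars for a better score rank, black dots on peaks that overlap the other stage, and the 100 kb limit shaded. Twist2 has 5 E9.5 and 14 E10.5 peaks, and the surroundings of Twist1 are empty out to 804 kb.

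The letters at the centres of the peaks were compared with those of the whole lists in 300 bp windows on both strands. Of the 3 E9.5 windows, 2 held the SMAD box CAGAC (60.6% of all windows of that list), and of the 9 E10.5 windows, 4 held it (53.2%). Its longer form CAGACC was present in 0 of 3 (20.9%) and in 2 of 9 (19.7%), the latter at Hand1 +66.8 kb and Twist2 +26.6 kb, each of which holds 3 SMAD boxes. The GC-rich SMAD sequence GGCGCC was present in 1 of 3 (12.6%) and 3 of 9 (13.1%), and these are the Tcf12 window and the Tcf4 windows near the 5′ end. The palindrome GTCTAGAC was in none of the 12 windows (1.21% and 0.42% of all). A match is a description of the letters and not a site, and CAGACC contains CAGAC.

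An E-box (CANNTG) lay in 2 of the 3 windows at E9.5 (76.6% of all) and 6 of the 9 at E10.5 (71.3% of all). The windows without it are the 3 Tcf4 windows near its 5′ end and that of Twist2 at -86.7 kb. Its form CATCTG was found in 1 of 3 (22.6%) and 3 of 9 windows (19.1%), at Twist2 -15 kb, Twist2 +26.6 kb, Hand1 +66.8 kb and Hand2 +26.3 kb. CAGCTG was found in 0 of 3 (22%) and 3 of 9 (18.7%), CACCTG in 1 of 3 (25%) and 2 of 9 (25.4%), and CATATG in none of the 12 (3.81% and 3.82%). A pair of E-boxes with 5 bases between them, an arrangement known for TWIST1 dimers, was in none of the 12 (1.01% and 0.582% of all windows). The GC content of the windows was 82.7% and 78.7% in the overlapping pair at Tcf4 and 66% at the Tcf4 5′ end, 74% in the Tcf12 window, and 49.3% to 56.7% in the others. Of the windows without an E-box, those of Tcf4 are thus rich in GC and that of Twist2 (49.7%) is not, while the GC-rich Tcf12 window holds an E-box. The part of base composition in the presence of a motif was not tested.

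The other bHLH genes were counted with the same rule. Of 45 genes on 6 lists, 44 were matched in the annotation. Within 100 kb, 16 of them had a peak at E9.5 (background 20.5%) and 29 at E10.5 (background 52.9%). Peaks of both stages were found at 15 (background 14.6%) and an overlapping pair at 6 (background 5.51%). The Id genes, whose products capture E proteins, accounted for 4 of these 6, since each of Id1, Id2, Id3 and Id4 had peaks of both stages that overlap. The best ranks were 11 and 19 for Id1, 13 and 12 for Id2, 19 and 18 for Id3, and 6 and 7 for Id4 (E9.5 first). Among the 6 Hand and Twist group genes the best ranks within 100 kb were 317 (E9.5) and 253 (E10.5), both at Tcf4. Atoh8, a bHLH gene related to atonal, had a peak of rank 98 at E9.5 and no E10.5 peak within 100 kb. The lists differ in length, so that ranks of different stages are not compared.

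Tcf3, the third E-protein gene, had 3 peaks within 100 kb at E10.5 and none at E9.5 (best rank 1814, nearest at 63.3 kb). Of 12 further genes of the HAND and TWIST class, 4 had a peak at E9.5 (background 20.5%) and 8 at E10.5 (background 52.9%). They include, picked after their values were seen, Scx, a tendon progenitor gene (0 and 4 peaks), and Tcf15, a gene of somites (1 and 1, with the E9.5 peak 0.525 kb from the 5′ end). Of 7 muscle and mesoderm genes, 3 and 5 had a peak, of 14 neural genes 2 and 8, and of 6 other bHLH genes 3 and 3. The shares over all protein-coding genes were 20.5% and 52.9%, and nothing particular to these short lists is read from the counts. By the numbers of peaks at both stages and of overlapping pairs, 5 related genes had the same pattern as Hand1 and Hand2 (0, 2 and 0), namely Myod1, Myog, Neurog2, Neurog3 and Ascl2. Bhlhe40 and Bhlhe41 had that of Twist2 (1, 2 and 0), and Tcf21, Tcf23, Nhlh1, Neurog1, Atoh7 and Bhlha15 that of Tcf12 (0, 1 and 0). None of the 44 had that of Tcf4 (2, 2 and 1). Among all protein-coding genes, these patterns were held by 2347, 474 (2.12%), 4356 (19.5%) and 54 genes (0.241%), respectively, and likeness over 2 stages is a coarse measure.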

How the data were processed

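SMAD4 ChIP and input libraries were sequenced by the authors, aligned to mm9 with Bowtie 1.1.0 (unique matches) and used for permissive peak calling with MACS 1.4 in each replicate against the input of the same sample. A permissive threshold can lengthen peaks and join neighbouring sites. Replicates of a stage were merged with MSPC, and regions found in a single replicate were dropped. The deposited lists give a position and a score per peak, whose unit they do not name, and it was used for ranks within a list only (rank 1 is the highest score, ties share the better rank). According to the paper, a merged peak took the best MACS P-value of its overlapping replicate peaks. The lists do not say whether the score is derived from that value. The depth per library is unknown.

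Samples were grouped by title. Each distance runs from a peak's centre to the gene 5′ end in GENCODE vM1 (NCBIM37, the same build as mm9), coordinates are 1-based, and 0 peaks ran past a chromosome end. Python 3.11.15, NumPy 2.4.6, pandas 2.3.3, pysam 0.24.0 and Matplotlib 3.10.9 were used, and the counting steps were tested on simulated data. All 6 genes and all their peaks were named. Of the related genes, those with the pattern of a member that had a peak, and the 5 with the lowest rank number in either list, were named. Tcf3, Scx, Tcf15, Ferd3l and the genes at peaks beyond 100 kb were named after their values were seen. The members and lists were chosen with earlier results of these data known. Other distances, 5′ ends, stricter lists, overlap rules and windows were tried. Tcf24 was not matched. Sequences on chromosome 18 are not printed.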

Additional observations from a re-analysis of the deposited data

How the results depend on the processing

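Of 62 alternatives over 16 counts, 42 stayed within 1.5 times the reported count. With 250 kb in place of 100 kb, the peaks of the 6 genes numbered 5 (E9.5) and 15 (E10.5), and 3 and 5 of the 6 genes had a peak (40.6% and 71.9% of all protein-coding genes). With any annotated transcript 5′ end as reference, the E9.5 peaks numbered 5, the additions being at Tcf4. With scores of 100 or more, 0 peaks and 0 genes remained at E9.5 and 1 peak and 1 gene (Tcf4) at E10.5. This minimum shortens the whole lists as well, to 208 regions from 2073 (E9.5) and to 522 from 6185 (E10.5). With the better-scored 50% of each list, 1 peak and 1 gene remained at E9.5 (Tcf4), while E10.5 kept 5 peaks at 4 genes. An E10.5 list cut to the length of the E9.5 list also kept 5 peaks at 4 genes. Shares of all protein-coding genes were not computed for the shortened lists, and nothing particular to Tcf4 is read from these counts. Peaks within 1 kb of each other counted as shared gave 2 E10.5 peaks at Tcf4, and the other overlap rules kept 1 at each stage. In 150 bp windows CAGAC was in 1 E9.5 window, GGCGCC in 0 E9.5 windows and CAGACC in 0 E10.5 windows. In 500 bp windows CAGAC was in 8 E10.5 windows. In whole peaks CAGACC was in 1 E9.5 and 5 E10.5 peaks, CAGAC in 9 and GGCGCC in 5 E10.5 peaks. Longer stretches hold more letters by construction. With 3 and 9 peaks, every count rests on few regions, and no count has an error between replicates.

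No paired analysis was possible from the peak lists, in which the replicates of a stage are merged, and no value per replicate was used.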
